A study of Mus musculus with 22 samples.

Results

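Full-grown mouse oocytes that carried the control label of a Setd2 series were compared with zygotes of the same label, and the measurement was polyadenylated RNA. The genes described are all those with at least 1 FPKM (fragments per kilobase of transcript, scaled to the mapped fragments of the library) in at least 2 of the 4 control libraries. These were 10239 of the 22592 gene symbols in the table (45.3%). Of the 10239 genes, 621 reached that level through the 2 oocyte libraries alone, 301 through the 2 zygote libraries alone and 161 through 1 library of each stage. A gene admitted by a single stage had to differ between stages, so the direction of 486 of the falls and 216 of the rises counted below was set by the rule.

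The 4 libraries were 2 of full-grown oocytes (FGO) and 2 of zygotes (1C), all labelled Setd2_Con. Females were 8 weeks old and received gonadotropins. Times are given from PMSG for oocytes and from hCG for zygotes, so the recorded treatment differed between stages. Oocytes still held in the germinal vesicle stage were taken 48 h after PMSG, and zygotes 30 h after hCG. The labels name no allele, Cre driver or strain for the controls, no number of cells per library and no animal behind a replicate, so p-values measure the spread between libraries, which may be technical. Matched groups of 2 libraries each from the Setd2_KO label, which the series text calls a maternal knockout, and 48 h embryos of both labels complete the table of 12 libraries. Libraries were made by Smart-seq2, which copies RNA from its poly(A) tail and amplifies it from few cells.

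A full-grown oocyte no longer transcribes and lives on RNA that it stored during growth. As background, meiotic maturation wakes part of this store by lengthening poly(A) tails and removes another part by shortening them. The CCR4-NOT complex shortens tails, the DCP1-DCP2 enzyme removes the 5′ cap, and BTG4 brings CCR4-NOT to its targets. Messages with a cytoplasmic polyadenylation element near their 3′ end, which CPEB proteins bind, are typically stored with short tails and extended later. The embryo's own genome becomes strongly active at the 2-cell stage in the mouse. A tail-primed library reads tail length together with RNA amount, and FPKM is a share of each library, so clearance, tail shortening and a falling share cannot be told apart in these values.

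All 10 oocyte markers checked, among them Zp3, Gdf9 and Nlrp5, were at 1 FPKM or more in all 4 libraries, with a lowest level of 54.6 FPKM in the oocytes and 2.36 FPKM in the zygotes. Replicates ranked the genes alike, with Spearman correlations across genes of 0.982 in oocytes and 0.955 in zygotes, against 0.783 to 0.809 between stages. From 9326 to 9982 genes per library reached 1 FPKM. The files give no counts, and the steps between the lowest FPKM values of 6810 genes put the depth near 22.7 and 9.54 M fragments in the oocytes but 3.53 and 3.17 M in the zygotes. Depth therefore moved with stage, and its part in the changes was not tested.

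Between oocyte and zygote, 2825 of the 10239 genes fell and 2233 rose, while 5181 passed in neither direction. Here a gene is said to have fallen or risen when limma gave an adjusted p under 0.05 for log2(FPKM + 1) in a fit of all 12 libraries. Over all 12199 genes tested, 24.0% were called lower and 18.5% higher in zygotes, and these shares are the background for every list below. At an unadjusted p under 0.05, 5933 of the 10239 genes passed. Both zygotes lay below both oocytes for 4257 genes and above them for 3725, and every called gene was among these. With stage labels shuffled, 2 against 2 libraries separate in either direction with a probability of 0.33, so these counts are a description and no test. Falls were larger than rises: 2321 genes fell at least 2-fold, 861 at least 4-fold and 91 at least 16-fold, whereas 1327, 76 and 3 genes rose by those steps. The median change over the 10239 genes was -0.060 on the log2 scale.

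**Figure D1:**
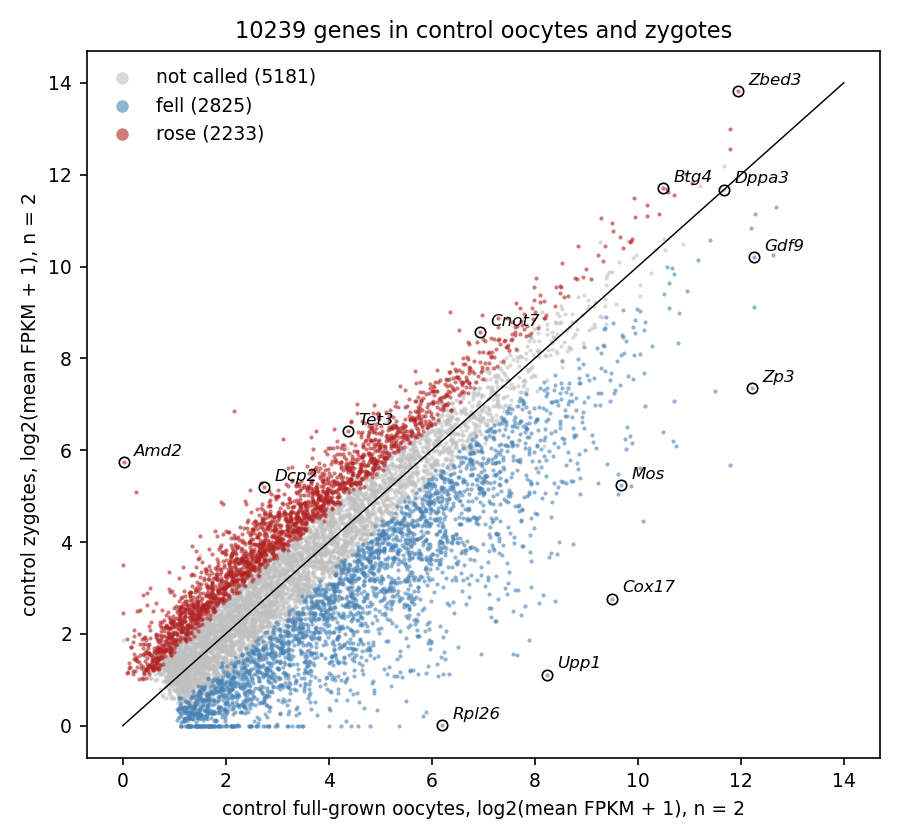
Mean level of each of the 10239 genes in control oocytes (horizontal) and control zygotes (vertical), both as log2(mean FPKM + 1) over 2 libraries. Blue points fell (2825), red points rose (2233) and grey points were not called. The line marks equal levels. Points spread further below the line than above it, and Mos, Zp3, Cox17, Upp1 and Rpl26 lie far below.

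The direction of the split depended on scaling. Quantile normalization, which forces all libraries to 1 distribution, moved the median to 0.14 and turned the split into 2419 falls and 3000 rises (55.4% rises, against 44.1%). No gene called here was called in the opposite direction by an alternative fit. Each library mattered to the counts: without oocyte replicate 2 there were 1803 falls and 1313 rises, and without oocyte replicate 1 there were 2146 and 1270. Through all alternatives 1499 falls and 851 rises held, and a call is described below as held when it passed in each of them. A gene that an alternative did not test was counted as not held. The fit with a filter at 5 FPKM tested 8107 of the genes, so calls outside these could not be held. A call that was not held was therefore either lost in an alternative or not tested in that fit.

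Abundant messages moved as well as rare ones. Among the 106 genes with a mean level of at least 500 FPKM, 37 fell and 36 rose. The histone H1 of oocytes, H1foo, was among the most abundant messages of the oocyte with 7245 and 6001 FPKM in the oocytes and 2714 and 2306 FPKM in the zygotes, a change of -1.40 ± 0.22 (SE, as in all changes below) on the log2 scale (adjusted p = 0.00069). The polyubiquitin gene Ubb had 8009 and 4585 FPKM in the oocytes and 1131 and 1289.8 FPKM in the zygotes (log2 change -2.33 ± 0.33, adjusted p = 0.000363). In the zygote the most abundant message was Zbed3, whose protein is known from the subcortical maternal complex, with 4191 and 3669 FPKM in the oocytes and 13985 and 15002 FPKM in the zygotes. Zbed3 rose by 1.89 ± 0.24 (adjusted p = 0.00018), and its values at the stages were far apart. Tcl1, a co-activator of AKT kinases, had 4063 and 2999 FPKM in the oocytes and 7459 and 8968 FPKM in the zygotes, a rise of 1.23 ± 0.28 (adjusted p = 0.00496) that missed the threshold without oocyte replicate 2 (adjusted p = 0.0526).

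The messages of the egg coat and of oocyte growth factors were the clearest falls among oocyte-specific genes. As shares of the list, 62.5% fell against 24.0%, and 18.8% rose against 18.5%. Of 16 measured, 10 fell (9 held) and 3 (Bmp15, Kit and Pla2g4c) rose (1 held), with a median log2 change of -1.86; without either oocyte library alone, 1 rise was called. The zona pellucida is the glycoprotein coat that sperm must bind and cross. Its component Zp3 stood at 5023 and 4476 FPKM in the oocytes and 166 and 159 FPKM in the zygotes, a change of -4.86 ± 0.32 on the log2 scale (adjusted p = 5.33e-06). Zp1 had 1588 and 1299 FPKM in the oocytes and 82.3 and 84.9 FPKM in the zygotes (change of -4.09 ± 0.24, adjusted p = 4.68e-06). Zp2 had 1570.1 and 1853 FPKM in the oocytes and 65.0 and 69.7 FPKM in the zygotes (change of -4.64 ± 0.39, adjusted p = 1.93e-05). In each of these 3 genes the oocyte values stood above 1000 FPKM and the zygote values under 200 FPKM. The oocyte growth factor Gdf9, which acts on the surrounding granulosa cells, kept a high level after its fall: 4918 and 4876 FPKM in the oocytes and 1336 and 1035 FPKM in the zygotes (log2 change -2.06 ± 0.24, adjusted p = 0.00013). Its partner Bmp15 went the other way, with 989 and 888 FPKM in the oocytes and 1294 and 1711 FPKM in the zygotes. Its rise of 0.67 ± 0.23 (adjusted p = 0.0348) was not called without oocyte replicate 1, oocyte replicate 2 or zygote replicate 2 (adjusted p = 0.0832, 0.165 and 0.215). The plasminogen activator Plat, a dormant message that is translated during maturation, had 578 and 657 FPKM in the oocytes and 114 and 136 FPKM in the zygotes (change of -2.30 ± 0.23, adjusted p = 5e-05).

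Oocyte transcription factors did not move as a block. Of 20 measured, 3 fell (all held) and 6 rose (3 held), 15.0% against 24.0% and 30.0% against 18.5%, with a median of 0.32; without oocyte replicate 1 or zygote replicate 1 alone, 3 rises were called. The 3 falls were Figla, Nobox and Foxr1. FIGLA activates the zona genes, and its message had 54.6 and 86.0 FPKM in the oocytes and 2.36 and 4.7 FPKM in the zygotes (change of -3.99 ± 0.48, adjusted p = 0.000135). NOBOX is a homeobox factor of early follicles, with 677 and 645 FPKM in the oocytes and 192 and 231 FPKM in the zygotes (change of -1.65 ± 0.20, adjusted p = 0.000138). Foxo3, which holds primordial follicles dormant, rose from low levels: 2.79 and 4.95 FPKM in the oocytes and 21.6 and 16.3 FPKM in the zygotes (rise of 2.06 ± 0.32, adjusted p = 0.000625). The Obox homeobox gene Obox5 had 609.9 and 596 FPKM in the oocytes and 1143 and 1278 FPKM in the zygotes (rise of 1.00 ± 0.20, adjusted p = 0.00225). Obox genes are near-identical copies, so fragments may have been shared among them.

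The list of the subcortical maternal complex and other maternal-effect genes, which the early embryo needs from the egg, split as a whole. Of 26 measured, 10 fell (7 held) and 6 rose (4 held), 38.5% against 24.0% and 23.1% against 18.5%, with a median of -0.26 that turned to 0.060 under quantile normalization. The falls were Nlrp5, Tle6, Ooep, Khdc3, Padi6, Nlrp2, Nlrp14, Npm2, Uchl1 and Dppa5a. The rises were Zbed3, Nlrp4f, Nlrp4e, Ctnnb1, Zfp57 and Bcl2l10. Khdc3 (Filia), a part of the complex, had 975 and 894 FPKM in the oocytes and 42.7 and 30.0 FPKM in the zygotes, a change of -4.67 ± 0.30 (adjusted p = 4.68e-06). Nlrp5 (Mater), a core part, fell less, with 505 and 479 FPKM in the oocytes and 199 and 268 FPKM in the zygotes (change of -1.09 ± 0.22, adjusted p = 0.0031). Dppa5a, an RNA-binding protein of oocytes and pluripotent cells, had 1603 and 1707 FPKM in the oocytes and 82.1 and 62.0 FPKM in the zygotes (change of -4.52 ± 0.27, adjusted p = 4.68e-06). Dppa3 (Stella), which protects the maternal genome from loss of DNA methylation, was not called: it had 3448 and 3100.1 FPKM in the oocytes and 3156 and 3378 FPKM in the zygotes, and the ranges overlapped. The NLR-family gene Nlrp4f had 309.8 and 266 FPKM in the oocytes and 528 and 696 FPKM in the zygotes (rise of 1.08 ± 0.20, adjusted p = 0.00158).

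Regulators of meiosis moved in both directions, at shares close to the background. Of 37 measured, 8 fell (4 held) and 9 rose (6 held), 21.6% against 24.0% and 24.3% against 18.5%, with a median of 0.23; without oocyte replicate 2, 4 falls were called, and under quantile normalization 15 rises. Mos, the kinase that starts the MAP kinase cascade and holds the egg in metaphase II, had 759 and 872 FPKM in the oocytes and 44.9 and 28.9 FPKM in the zygotes (change of -4.46 ± 0.21, adjusted p = 2.28e-06). The next kinase of the cascade, Map2k1, rose by 1.27 ± 0.22 (adjusted p = 0.00127), from 95.0 and 112 FPKM in the oocytes to 231 and 270.2 FPKM in the zygotes. The last kinase, Mapk3, fell by 1.36 ± 0.25 (adjusted p = 0.00157), from 235 and 287 FPKM in the oocytes to 102 and 99.4 FPKM in the zygotes. So 3 successive kinases of 1 cascade had 2 falls and 1 rise, each with separate ranges. The spindle checkpoint kinase Bub1b had 222 and 224 FPKM in the oocytes and 85.3 and 56.0 FPKM in the zygotes (change of -1.68 ± 0.22, adjusted p = 0.00021). Gpr3, the receptor that keeps cyclic AMP high during arrest, had 28.0 and 29.1 FPKM in the oocytes and 71.7 and 66.7 FPKM in the zygotes (rise of 1.25 ± 0.22, adjusted p = 0.00137). Of the 3 B cyclin genes in the list, Ccnb2 had 279 and 251 FPKM in the oocytes and 263 and 299 FPKM in the zygotes and was not called. Ccnb1 had 403 and 316 FPKM in the oocytes and 519 and 848 FPKM in the zygotes, and its rise of 0.89 ± 0.25 (adjusted p = 0.0145) was not called without oocyte replicate 2 or zygote replicate 2 (adjusted p = 0.115 and 0.134). Ccnb3, at a lower level, had 6.72 and 6.41 FPKM in the oocytes and 9.83 and 16.04 FPKM in the zygotes (rise of 0.84 ± 0.29, adjusted p = 0.0351), a call lost in 5 alternatives (adjusted p = 0.0529 to 0.208), 3 of them without oocyte replicate 1, oocyte replicate 2 or zygote replicate 2.

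**Figure D2:**
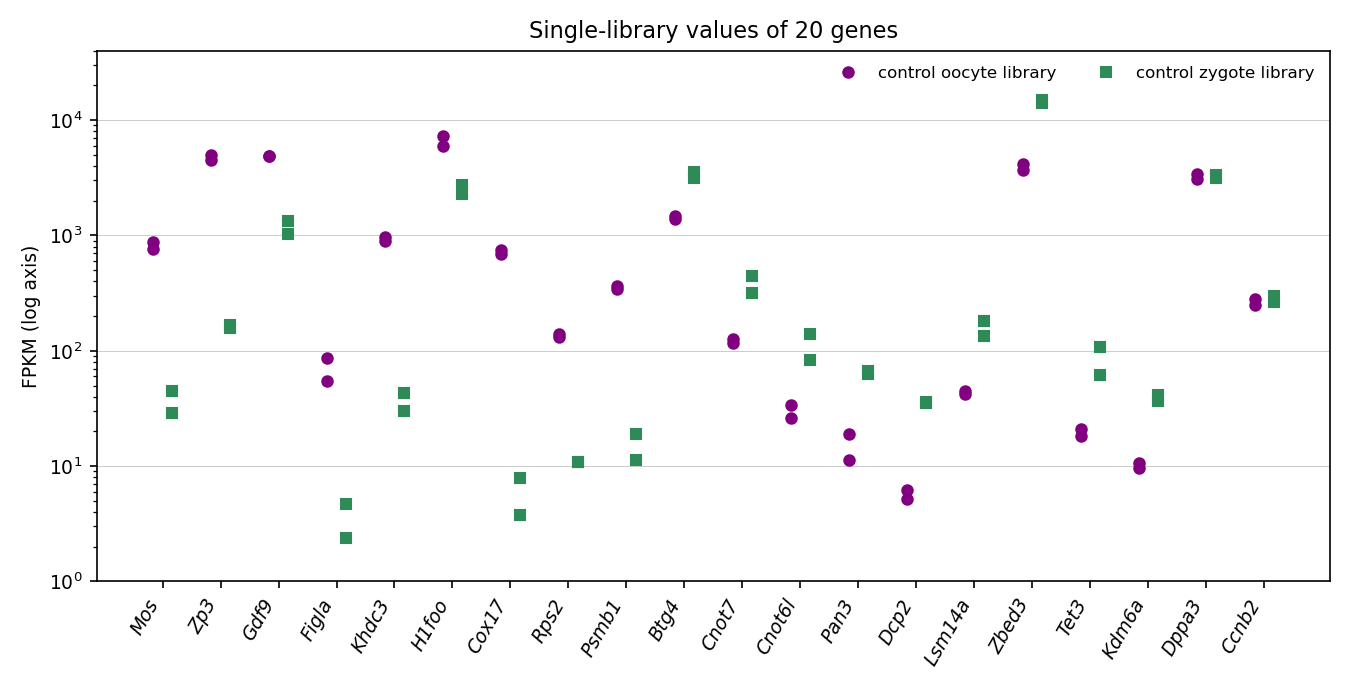
FPKM on a log axis of 20 genes in each control library. Circles are the 2 oocyte libraries and squares the 2 zygote libraries. Mos, Zp3, Figla, Khdc3 and Cox17 fell by more than 3.9 on the log2 scale, Btg4 to Kdm6a rose, and Dppa3 and Ccnb2 were not called.

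Among genes for deadenylation and decay, rises outnumbered falls, and 22 of 49 were not called. Of the 49, 19 rose (9 held) and 8 fell (7 held), 38.8% against a background of 18.5% and 16.3% against 24.0%, with a median of 0.50. Btg4, the CCR4-NOT adaptor of the maternal clearance, had 1466 and 1399 FPKM in the oocytes and 3175 and 3544 FPKM in the zygotes, a rise of 1.23 ± 0.21 (adjusted p = 0.00102). Both deadenylase classes of CCR4-NOT rose. The catalytic subunit Cnot7 had 128 and 116 FPKM in the oocytes and 315 and 448 FPKM in the zygotes (rise of 1.62 ± 0.31, adjusted p = 0.00193). The other catalytic subunit, Cnot6l, had 33.9 and 26.1 FPKM in the oocytes and 139 and 83.4 FPKM in the zygotes (rise of 1.82 ± 0.31, adjusted p = 0.00115). Its paralog Cnot6 was at a lower level, with 4.14 and 2.96 FPKM in the oocytes and 11.3 and 10.5 FPKM in the zygotes (rise of 1.40 ± 0.24, adjusted p = 0.00101). The PAN2-PAN3 complex trims long tails first, and Pan3 had 19.1 and 11.4 FPKM in the oocytes and 67.3 and 63.5 FPKM in the zygotes (rise of 2.07 ± 0.25, adjusted p = 0.000151). The decapping enzyme Dcp2 had 5.2 and 6.25 FPKM in the oocytes and 35.4 and 36.1 FPKM in the zygotes, the largest rise of the list at 2.45 ± 0.25 (adjusted p = 5.13e-05).

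Of the 8 falls in the decay list, 5 were Lsm genes (Lsm2 to Lsm6). Among these, Lsm5 and Lsm4, parts of the LSM ring that binds shortened messages, had the largest falls. Lsm4 had 75.1 and 72.6 FPKM in the oocytes and 2.48 and 3.15 FPKM in the zygotes (change of -4.30 ± 0.25, adjusted p = 4.68e-06). Lsm5 had 64.7 and 78.7 FPKM in the oocytes and 2.64 and 0.974 FPKM in the zygotes (change of -4.76 ± 0.33, adjusted p = 6.98e-06). The CCR4-NOT subunit Cnot10 had 21.6 and 24.5 FPKM in the oocytes and 4.81 and 5.44 FPKM in the zygotes (change of -1.97 ± 0.28, adjusted p = 0.000362). Zfp36l2, which directs AU-rich messages to decay, had 0.232 and 0.407 FPKM in the oocytes and 2.68 and 2.18 FPKM in the zygotes; it reached 1 FPKM only in the zygotes, so its place among the 19 rises was set by the rule, as was that of Skiv2l, at that level only in the oocytes, among the 8 falls. The m6A reader Ythdf2, also known from maternal clearance, was not called with 20.9 and 28.3 FPKM in the oocytes and 33.2 and 26.9 FPKM in the zygotes, and its ranges overlapped.

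Genes that store messages or control their translation also rose more often than they fell. Of 39 measured, 15 rose (8 held) and 8 fell (4 held), 38.5% against 18.5% and 20.5% against 24.0%, with a median of 0.53. Without oocyte replicate 2, 9 rises and 4 falls were called, and without zygote replicate 2 or under quantile normalization, 5 falls. Cpeb1, the main binder of the polyadenylation element in oocytes, had 247 and 278 FPKM in the oocytes and 101 and 100.2 FPKM in the zygotes (change of -1.37 ± 0.25, adjusted p = 0.00146). Cpeb4, a relative that takes over later in meiosis, rose from 0.966 and 1.52 FPKM in the oocytes to 9.08 and 11.03 FPKM in the zygotes (rise of 2.31 ± 0.33, adjusted p = 0.000415). So the CPEB relatives Cpeb1 and Cpeb4 moved in opposite directions, although Cpeb1 remained at the higher level. Patl2, an oocyte RNA-binding protein of dormant messages, had 52.1 and 64.3 FPKM in the oocytes and 10.5 and 8.73 FPKM in the zygotes (change of -2.48 ± 0.33, adjusted p = 0.000274). Pabpn1l, an embryonic poly(A)-binding protein, had 131 and 285 FPKM in the oocytes and 69.7 and 39.8 FPKM in the zygotes (change of -1.85 ± 0.39, adjusted p = 0.00321), and its oocyte replicates differed by more than 2-fold. The oocyte RNA-binding protein Elavl2 had 9.67 and 13.8 FPKM in the oocytes and 63.7 and 48.6 FPKM in the zygotes (rise of 2.17 ± 0.26, adjusted p = 0.000129). Lsm14a, a repressor in RNA granules, had 45.1 and 42.5 FPKM in the oocytes and 182 and 135 FPKM in the zygotes (rise of 1.81 ± 0.26, adjusted p = 0.000385). The oocyte Y-box protein Ybx2 (MSY2) was not called (adjusted p = 0.0779), with 47.7 and 51.2 FPKM in the oocytes and 42.4 and 21.1 FPKM in the zygotes.

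The 3′ ends of the messages were then searched for the polyadenylation element, because a tail-primed library sees messages through their tails. For each of 9740 genes (95.1% of the 10239) the last 150 bases of 1 annotated transcript were read on the transcript strand, from GENCODE vM21 on GRCm38. The element was searched as TTTTAT or TTTTAAT. Letters of the element can overlap the AATAAA or ATTAAA signal of cleavage, and did so at all matches in 171 of the 2426 genes with a match. The following sites show a match to the element, in capitals and read 5′ to 3′, in 5 genes that rose, 3 that fell and 1 that was not called. In Pan3, Lsm14a and H2afx the capitals run into a cleavage signal, and in Zbed3 and Wee2 they lie after one.

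Zbed3: tttttaataaacTTTTATttatctgc
Cnot7: tcttaaggtacaTTTTATatcaataaaaat
Pan3: atagcagtattTTTTAATaaagaattgcag
Lsm14a: ccactttgtgtTTTTAATaaaggccatgga
Hnrnpa2b1: tttaaatacaagTTTTATaaaataaatact
H1foo: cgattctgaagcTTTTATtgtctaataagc
Gdf9: agagtgctgtggTTTTATgtgacggaagaa
H2afx: ttaatgggctaaTTTTATtaaaggatcgtt
Wee2: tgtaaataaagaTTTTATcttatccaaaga

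On GRCm38 these sites lie in annotated 3′ untranslated regions. For the genes that rose they are at chr13:95337816-95337841 (plus strand) for Zbed3, chr8:40493038-40493067 (minus strand) for Cnot7, chr5:147548460-147548489 (plus strand) for Pan3, chr7:34344669-34344698 (minus strand) for Lsm14a and chr6:51461133-51461162 (minus strand) for the RNA-binding protein gene Hnrnpa2b1. For the genes that fell they are at chr6:115950157-115950186 (plus strand) for H1foo, chr11:53437854-53437883 (plus strand) for Gdf9 and chr9:44336027-44336056 (plus strand) for the histone gene H2afx, and for the oocyte kinase gene Wee2, which was not called, at chr6:40466784-40466813 (plus strand). The element was thus present in messages of each class, and its frequency differed among classes. It was found in 34.9% of the genes that rose (750 of 2151), 25.5% of those not called (1253 of 4909) and 15.8% of those that fell (423 of 2680), against 24.9% of all 9740. The base composition of the window moved in parallel, with a median A+T content of 66.0%, 62.0% and 56.7%. The reversed letters TATTTT or TAATTTT were found in 34.0%, 27.9% and 17.4% of the same classes. In windows with 60 to 65% A+T, the element was in 26.5% of genes that rose and 19.6% of those that fell, and the reversed letters in 26.0% and 22.5%. The median annotated 3′ untranslated region was 1572 nt in genes that rose and 402.5 nt in genes that fell. In the 6951 genes with a cleavage signal in the last 50 bases and an untranslated region of at least 150 nt, the shares with the element were 36.6%, 26.5% and 17.9%. These shares are descriptions with no test, and tail lengths were not measured.

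The broadest falls were in genes for the basic machinery of protein synthesis and respiration. Of 77 ribosomal protein genes measured, 70 fell (59 held) and 1 rose (held), 90.9% against the background of 24.0%, with a median of -2.59. Of the 70 falls, 12 were of genes at 1 FPKM only in the oocytes, whose direction the rule set. The list's summed share of all FPKM went from 1.58% and 1.83% in the oocytes to 0.409% and 0.382% in the zygotes. Rps2 had 131 and 139.7 FPKM in the oocytes and 10.9 and 10.9 FPKM in the zygotes, a change of -3.52 ± 0.22 (adjusted p = 4.68e-06). Rpl41, the shortest ribosomal protein, had 989.8 and 1209.6 FPKM in the oocytes and 26.6 and 15.3 FPKM in the zygotes (change of -5.69 ± 0.46, adjusted p = 1.67e-05). Rpl26 had 69.6 and 75.8 FPKM in the oocytes and 0.0117 and 0 FPKM in the zygotes; it is listed at 0 in 1 zygote and is among those 12. The exception that rose was Rps27l, a relative of Rps27 known as a p53 target, with 399.7 and 478 FPKM in the oocytes and 865 and 849 FPKM in the zygotes (rise of 0.97 ± 0.20, adjusted p = 0.00321). Ribosomal protein genes have many processed pseudogenes, and fragments may have been split among copies.

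Respiratory chain genes fell almost as uniformly, 88.5% against the background of 24.0%, and 1.28% rose against 18.5%. Of 78 measured, 69 fell (67 held) and 1 rose, with a median of -2.55; the rise, of Ndufa10, was not called without any 1 of the 4 libraries, and 3 rises were called under quantile normalization. Their summed share went from 3.90% and 4.28% of all FPKM to 1.02% and 0.97%. Cox7c, a small subunit of cytochrome c oxidase, had 181 and 223 FPKM in the oocytes and 2.66 and 1.18 FPKM in the zygotes (change of -6.16 ± 0.39, adjusted p = 4.68e-06). Ndufb10 of complex I had 153 and 151 FPKM in the oocytes and 3.03 and 4.71 FPKM in the zygotes (change of -4.99 ± 0.31, adjusted p = 4.68e-06). Atp5o of the ATP synthase had 328 and 345 FPKM in the oocytes and 5.99 and 5.11 FPKM in the zygotes (change of -5.69 ± 0.41, adjusted p = 7.58e-06). Outside the list, Cox17, the copper chaperone of cytochrome c oxidase, fell by 6.80 ± 0.39 (adjusted p = 4.68e-06), from 695 and 744 FPKM in the oocytes to 7.87 and 3.74 FPKM in the zygotes. In all 4 genes the zygote values were under 10 FPKM and the oocyte values above 100 FPKM.

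The proteasome showed a similar but smaller change, with 78.4% falls against 24.0% and 10.8% rises against 18.5%. Of 37 genes, 29 fell (18 held) and 4 (Psmd1, Psmd11, Psme3 and Psme4) rose (1 held), with a median of -1.27; without zygote replicate 1, 2 rises were called. The core subunit Psmb1 had 366 and 344 FPKM in the oocytes and 11.3 and 18.8 FPKM in the zygotes (change of -4.51 ± 0.41, adjusted p = 3.14e-05). The base ATPase Psmc4 had 214 and 194 FPKM in the oocytes and 25.7 and 27.1 FPKM in the zygotes (change of -2.90 ± 0.27, adjusted p = 3.8e-05). A large scaffold of the regulatory particle, Psmd1, was higher in zygotes with 48.1 and 44.3 FPKM in the oocytes and 104 and 109 FPKM in the zygotes (rise of 1.19 ± 0.26, adjusted p = 0.00479).

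**Figure D3:**
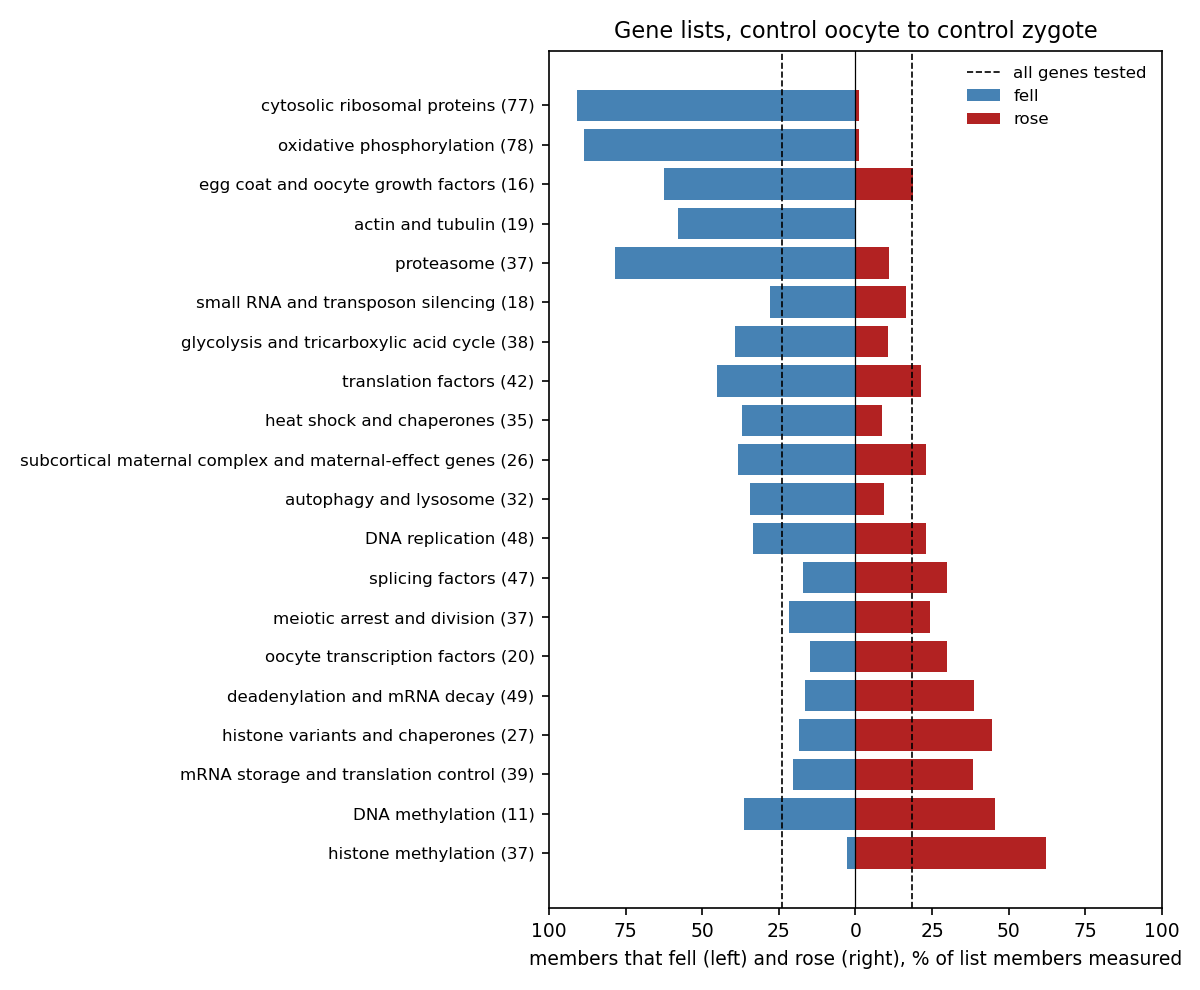
Share of each gene list that fell (blue, left) and rose (red, right) from control oocyte to control zygote, as a percentage of the members measured, whose number stands in brackets. Dashed lines give the shares over all 12199 genes tested, 24.0% lower and 18.5% higher. Ribosomal, respiratory and proteasome genes fell most widely and histone methylation genes rose most widely.

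Other growth-related lists fell in part. Falls were 45.2% of translation factors and 37.1% of chaperones, against 24.0%. Rises were 21.4% and 8.57%, against 18.5%. Of 42 translation factors, 19 fell (16 held) and 9 rose (4 held); without oocyte replicate 2 or zygote replicate 1 alone, 5 rises were called. Subunits of initiation factor 3 led the falls, with Eif3g at 216 and 220.0 FPKM in the oocytes and 11.5 and 16.8 FPKM in the zygotes (change of -3.88 ± 0.30, adjusted p = 1.07e-05). The helicase gene Eif4a1, which unwinds messages for the ribosome, went up, with 23.9 and 21.0 FPKM in the oocytes and 148 and 108 FPKM in the zygotes (rise of 2.44 ± 0.22, adjusted p = 3.16e-05). Of 35 chaperones, 13 fell (11 held) and 3 (Dnaja2, Hspa14 and Pdia3) rose (2 held), and rises numbered 8 under quantile normalization and 5 under median-ratio rescaling. The chaperonin subunit Cct5 had 593 and 569.9 FPKM in the oocytes and 56.8 and 74.4 FPKM in the zygotes (change of -3.14 ± 0.28, adjusted p = 2.77e-05). The constitutive chaperone Hspa8 had 351 and 309 FPKM in the oocytes and 60.2 and 80.7 FPKM in the zygotes (change of -2.22 ± 0.25, adjusted p = 9.33e-05). Both chaperones kept separate ranges.

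Metabolism and the cytoskeleton moved downward more often than upward. Falls were 39.5% of the glycolysis and cycle list, 57.9% of actin and tubulin genes and 34.4% of autophagy and lysosome genes, against 24.0%. Rises were 10.5%, 0.0% and 9.38%, against 18.5%. Of 38 genes of glycolysis and the tricarboxylic acid cycle, 15 fell (8 held) and 4 (Cs, Mpc1, Slc16a1 and Suclg2) rose (1 held); without oocyte replicate 2, 8 falls and 2 rises were called, and without oocyte replicate 1 or zygote replicate 1 alone, 2 rises. Quantile normalization gave 7 rises. The cycle enzyme Mdh2 had 282 and 230.3 FPKM in the oocytes and 22.4 and 25.6 FPKM in the zygotes (change of -3.36 ± 0.24, adjusted p = 7.58e-06). The lactate dehydrogenase of oocytes, Ldhb, stayed abundant, with 5479.6 and 4507 FPKM in the oocytes and 1995 and 2507 FPKM in the zygotes (change of -1.15 ± 0.21, adjusted p = 0.00166). Of 19 actin and tubulin genes, 11 fell (10 held) and none rose in this fit, with 1 or 2 rises in 5 alternatives. The tubulin gene Tubb6 had 486 and 503 FPKM in the oocytes and 147 and 115 FPKM in the zygotes (change of -1.92 ± 0.25, adjusted p = 0.000223). Of 32 autophagy and lysosome genes, 11 fell (9 held) and 3 (Atg3, Atg14 and Atp6v1a) rose (1 held), with 8 rises under quantile normalization, 5 in a fit of the 4 control libraries alone and 1 without either oocyte library or zygote replicate 1. The proton pump subunit Atp6v1d had 109 and 134 FPKM in the oocytes and 28.2 and 42.0 FPKM in the zygotes (change of -1.78 ± 0.23, adjusted p = 0.000206). The largest fall among genes of at least 20 FPKM with an established name was that of uridine phosphorylase, Upp1, with 313 and 289 FPKM in the oocytes and 1.5 and 0.828 FPKM in the zygotes (change of -7.14 ± 0.47, adjusted p = 5.33e-06).

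**Figure D4:**
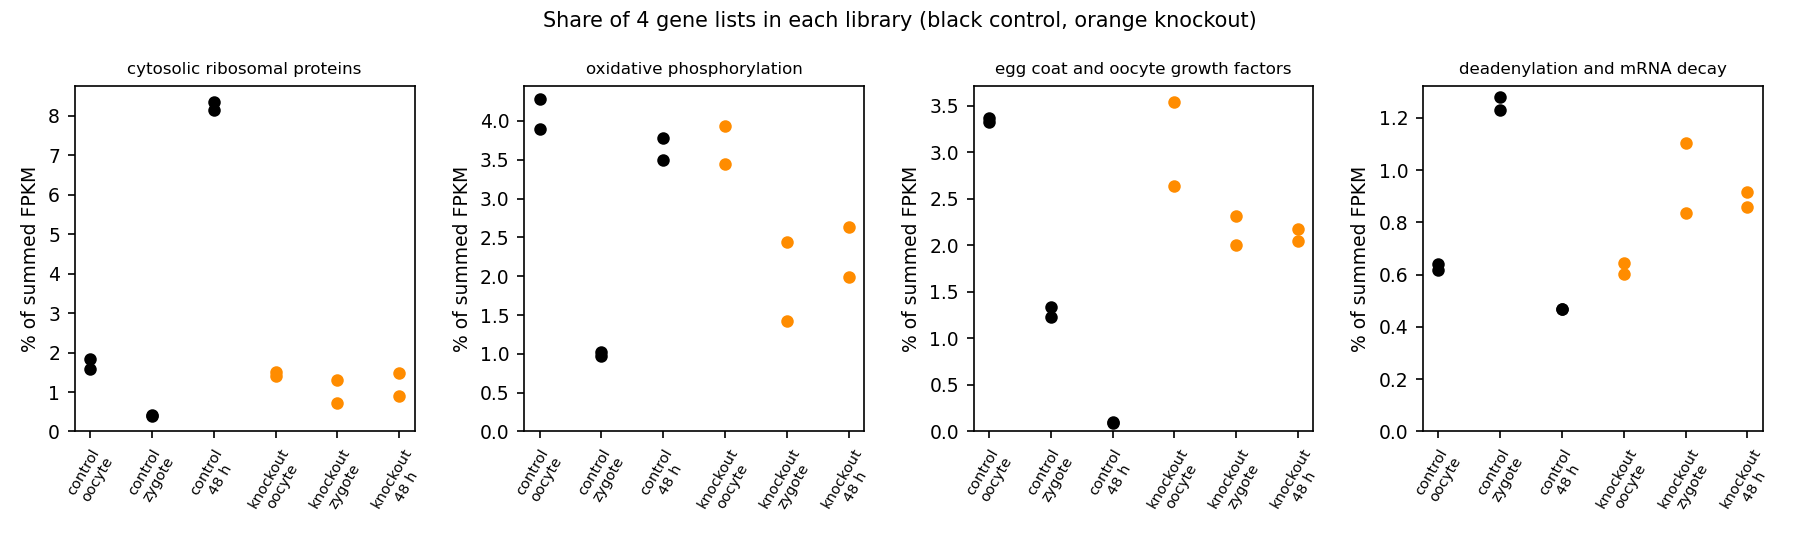
Share of the summed FPKM of each library taken by 4 gene lists, in control (black) and Setd2_KO (orange) oocytes, zygotes and 48 h embryos, 2 libraries each. In control zygotes the ribosomal list took 0.409% and 0.382%, below the oocytes, and at 48 h it took 8.15% and 8.36%.

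Histone methylation genes rose more widely than any other list. Of 37 histone methylation genes, 23 rose (9 held) and 1 (Suv39h1) fell, 62.2% against the background of 18.5%, with a median of 0.99. Without oocyte replicate 2 there were 15 rises and without zygote replicate 1 there were 14, and the fall was not called without oocyte replicate 1. Of the 23 rises, 2 were of genes at 1 FPKM only in the zygotes. The H3K27 demethylase gene Kdm6a had 10.5 and 9.55 FPKM in the oocytes and 41.2 and 36.9 FPKM in the zygotes (rise of 1.86 ± 0.22, adjusted p = 0.000134). The Polycomb gene Suz12, a core part of the H3K27 methyltransferase, had 18.7 and 13.2 FPKM in the oocytes and 85.9 and 44.5 FPKM in the zygotes (rise of 1.91 ± 0.31, adjusted p = 0.000828). Bmi1, of the other Polycomb complex, had 42.6 and 33.2 FPKM in the oocytes and 125 and 124 FPKM in the zygotes (rise of 1.70 ± 0.23, adjusted p = 0.000273). Setd2 itself, the H3K36 methyltransferase named in the knockout label, had 4.75 and 4.35 FPKM in the oocytes and 12.1 and 8.85 FPKM in the zygotes. Its rise of 1.04 ± 0.25 (adjusted p = 0.00727) missed the threshold without oocyte replicate 2 (adjusted p = 0.0541). DNA methylation genes moved in both directions: of 11, 4 (Apex1, Dnmt1, Dnmt3l and Mbd3) fell (2 held) and 5 (Dnmt3a, Hells, Mbd4, Tet3 and Zbtb33) rose (1 held), 36.4% against 24.0% and 45.5% against 18.5%; without oocyte replicate 2 there were 2 falls and 3 rises, and without zygote replicate 2 there were 2 falls. Tet3, the oxidase of 5-methylcytosine that acts in the zygote, had 18.2 and 21.0 FPKM in the oocytes and 108 and 61.1 FPKM in the zygotes (rise of 2.00 ± 0.27, adjusted p = 0.000302). Dnmt3l, the cofactor of methylation in growing oocytes, had 107 and 118 FPKM in the oocytes and 55.1 and 40.0 FPKM in the zygotes (change of -1.24 ± 0.24, adjusted p = 0.00196).

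Histone genes and replication genes split. Falls were 18.5% of the histone list and 33.3% of the replication list, against 24.0%. Rises were 44.4% and 22.9%, against 18.5%. Of 27 histone variants and chaperones, 12 rose (4 held) and 5 (Chaf1a, Chaf1b, H1foo, H2afv and H2afx) fell (all held), with a median of 0.51; without oocyte replicate 1 there were 6 rises and without zygote replicate 1 there were 7. The damage-signalling histone gene H2afx had 211 and 229 FPKM in the oocytes and 25.9 and 34.9 FPKM in the zygotes (change of -2.83 ± 0.20, adjusted p = 7.58e-06). Slbp, which binds the stem loop of histone messages, had 1092 and 1219 FPKM in the oocytes and 2182 and 3010.2 FPKM in the zygotes (rise of 1.15 ± 0.22, adjusted p = 0.00225). Of 48 replication genes, 16 fell (10 held) and 11 rose (5 held), with a median of -0.20 that turned to 0.034 under quantile normalization. Without oocyte replicate 2 there were 10 falls and 5 rises, without oocyte replicate 1 there were 5 rises, and without zygote replicate 2 there were 6. Thymidylate synthase, Tyms, had 58.3 and 61.6 FPKM in the oocytes and 1.97 and 2.99 FPKM in the zygotes (change of -4.15 ± 0.36, adjusted p = 2.34e-05). The origin subunit Orc6 had 107 and 116 FPKM in the oocytes and 225 and 264 FPKM in the zygotes (rise of 1.12 ± 0.20, adjusted p = 0.00147), and cyclin A2, Ccna2, had 56.7 and 64.3 FPKM in the oocytes and 140.2 and 160.0 FPKM in the zygotes (rise of 1.30 ± 0.22, adjusted p = 0.00108).

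Splicing factors also moved in both directions. Of 47, 8 fell (all held) and 14 rose (9 held), 17.0% against 24.0% and 29.8% against 18.5%, with a median of 0.21. The 7 Sm genes, for the small proteins that form a ring on spliceosomal RNAs, divided: Snrpd2 and Snrpb fell, Snrpg and Snrpd3 rose, and Snrpd1, Snrpe and Snrpf were not called. Snrpd2 had 187 and 194 FPKM in the oocytes and 1.84 and 2.04 FPKM in the zygotes (change of -6.03 ± 0.44, adjusted p = 8.71e-06). Snrpg had 23.1 and 36.4 FPKM in the oocytes and 110.1 and 109.9 FPKM in the zygotes (rise of 1.89 ± 0.32, adjusted p = 0.00108), and like Ccnb3 and Cyp19a1 it was picked after its values were seen. The RNA-binding protein gene Hnrnpa2b1, whose site is shown above, had 23.1 and 26.8 FPKM in the oocytes and 99.8 and 90.0 FPKM in the zygotes (rise of 1.89 ± 0.19, adjusted p = 4.8e-05). Of 18 genes for small RNAs and transposon silencing, 5 (Mael, Tarbp2, Tdrd5, Tdrd12 and Tdrkh) fell (1 held), 27.8% against 24.0%. Another 3 (Dicer1, Eif2c3 and Piwil1) rose (1 held), 16.7% against 18.5%, and the median was -0.68. The falls numbered 1 without oocyte replicate 2, 3 without oocyte replicate 1 or zygote replicate 1 or under quantile normalization, and 9 in a fit of the 4 control libraries alone. Tarbp2, a partner of Dicer, had 40.1 and 51.9 FPKM in the oocytes and 4.46 and 5.13 FPKM in the zygotes (change of -3.01 ± 0.37, adjusted p = 0.000161). Dicer1 had 15.3 and 17.9 FPKM in the oocytes and 34.6 and 32.8 FPKM in the zygotes (rise of 0.99 ± 0.22, adjusted p = 0.00533), so the partners moved in opposite directions.

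Length set the members apart, and the lists differed in length. The longest annotated transcript had a median of 1883 nt in genes that fell, 3039.5 nt in those not called and 4117 nt in those that rose (10098 genes with a length, 98.6%). Under 1000 nt, 62.7% of 764 genes fell and 6.15% rose. At 4000 nt and over, 10.7% of 3058 genes fell and 37.4% rose. Leaving out the ribosomal, respiratory and proteasome lists gave 58.4% and 6.88% under 1000 nt. Of 48 ribosomal protein genes in that class, 44 fell. Across the 10098 genes the Spearman correlation of length with change was 0.45, a description over genes that share the same 4 libraries. The median length was 886 nt in the ribosomal list, 913 nt in the respiratory list and 1581 nt in the proteasome list. It was 3434 nt in the decay list, 3569 nt in the storage list and 5944 nt in the histone methylation list. The small RNA list, with 5 falls and 3 rises, had a median of 4074.5 nt. Length also enters FPKM itself, and its part in the list results was not tested.

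**Figure D5:**
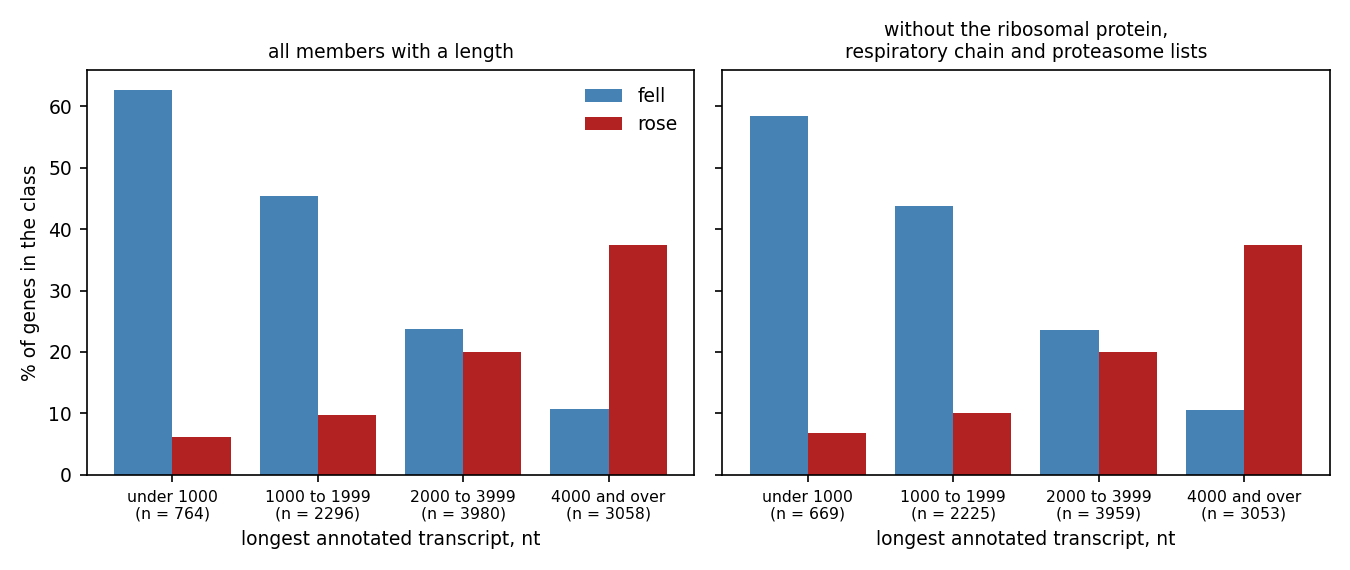
Percentage of genes that fell (blue) and rose (red) by the length of the longest annotated transcript, in all 10098 genes with a length (left) and without 3 lists (right). The share that fell drops from 62.7% under 1000 nt to 10.7% at 4000 nt and over, and the share that rose climbs from 6.15% to 37.4%.

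Genes known to be switched on first in the embryo were mostly near the floor in these zygotes. Of 27 such genes in the table, 7 reached the level required, 1 (Arg2) fell (held) and 2 (Dux and Fbxo15) rose (neither held; Dux was at 1 FPKM only in the zygotes), and the median of -0.26 turned to 0.20 without oocyte replicate 1. Leaving out oocyte replicate 2 or zygote replicate 2 left 1 rise. The 2-cell gene Zscan4d had 7.76 and 3.89 FPKM in the oocytes and 1.62 and 2.25 FPKM in the zygotes and was not called. Eif1a, a marker of genome activation, had 1.49 and 2.14 FPKM in the oocytes and 0.098 and 0.326 FPKM in the zygotes and was not called. In 48 h control embryos at the 2-cell stage, Zscan4d had 16.6 and 13.2 FPKM and Eif1a had 43.4 and 51.7 FPKM. The list as a whole took 0.108% and 0.111% of summed FPKM in oocytes, 0.0653% and 0.0772% in zygotes and 0.496% and 0.406% at 48 h.

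The 48 h control embryos give the levels of the same genes a stage later. Mos stood at 3.11 and 3.42 FPKM in the 48 h control embryos, below the zygotes. Btg4, which rose into the zygote, had 83.6 and 66.2 FPKM at 48 h, and Zbed3 had 218.9 and 177.7 FPKM. Rps2, which fell into the zygote, had 144.8 and 148.0 FPKM at 48 h, near its oocyte values. In the same limma fit the change from control zygote to control 48 h embryo was -3.12 ± 0.21 on the log2 scale for Mos (adjusted p = 1.87e-07), -5.48 ± 0.21 for Btg4 (adjusted p = 4.09e-09), -6.19 ± 0.24 for Zbed3 (adjusted p = 4.49e-09) and 3.63 ± 0.22 for Rps2 (adjusted p = 7.24e-08). So the first 3 genes fell and Rps2 rose over this step, which shares the zygote libraries with the step before it and was not run under the alternatives. Over all genes tested, 42.7% were called lower and 33.4% higher at 48 h.

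Some extreme values rest on gene models or on 1 library. Amd2, a near-identical copy of the polyamine gene Amd1, had 0.0165 and 0.00902 FPKM in the oocytes and 56.1 and 49.3 FPKM in the zygotes, so it was admitted only through the zygotes, and fragments of such copies may be assigned to either. The pseudogene Atp6v0c-ps2 had 6.92 and 0.000621 FPKM in the oocytes and 149 and 80.8 FPKM in the zygotes (rise of 5.30 ± 1.06, adjusted p = 0.00258), with oocyte libraries far apart. Ss18 is listed at 0 in oocyte replicate 1 and had 24.4 FPKM in oocyte replicate 2, so its rise of 3.24 ± 1.03 (adjusted p = 0.026) rests on libraries that differ within a group. It was not called without oocyte replicate 1, zygote replicate 1 or zygote replicate 2 (adjusted p = 0.0602, 0.107 and 0.0766). At 10 FPKM or more in both oocytes, 5 genes are listed at 0 in both zygotes, and no gene showed the reverse. They are Inha, Hint3, Tmem256, 2900009J06Rik and 2010003O02Rik. Hint3, which had 34.5 and 45.9 FPKM in the oocytes, was picked after its values were seen.

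Markers of other cells were checked because follicle cells adhere to oocytes and sperm enter eggs. Of 21 granulosa and cumulus genes in the table, 5 reached the level required and 4 of them (Cyp11a1, Gja1, Hsd3b1 and Inha) fell (2 held). The filter at 5 FPKM tested 3 of the 5 genes and called 2 falls, and each other alternative called 4. The 4 genes that fell reached 1 FPKM only in the oocytes, so their falls were set by the rule that admitted them and are given as levels. Inhibin alpha, Inha, had 14.8 and 15.1 FPKM in the oocytes and is listed at 0 in both zygotes. The summed level of the 21 genes was 42.2 and 39.5 FPKM in the oocytes and 14.9 and 22.9 FPKM in the zygotes. Most of the zygote sum was aromatase, Cyp19a1, which had 15.4 and 13.6 FPKM in the oocytes and 13.1 and 19.7 FPKM in the zygotes and was not called. Without it the other 20 genes summed to 26.8 and 25.9 FPKM in the oocytes and 1.86 and 3.18 FPKM in the zygotes, although Kitl and Has2 were higher in both zygotes than in both oocytes. The cumulus genes Ptx3, Tnfaip6, Areg and Ereg were at 0 in all 4 libraries. A smaller share of such cells in the zygote libraries and less of their RNA cannot be told apart in bulk values, and their part in other falls was not tested. Of 21 spermatid and sperm genes, 5 reached the level required and 2 (Ldhc and Oaz3) fell (1 held), with summed levels of 65.1 and 82.9 FPKM in oocytes and 53.0 and 53.2 FPKM in zygotes. Falls numbered 1 without either oocyte library or zygote replicate 1. Much of both sums was Odf2, not called, with 30.2 and 34.9 FPKM in the oocytes and 41.9 and 39.6 FPKM in the zygotes. Without Odf2 the other 20 genes summed to 34.9 and 48.0 FPKM in the oocytes and 11.2 and 13.6 FPKM in the zygotes. The sperm genes Tnp1, Smcp, Plcz1, Acr and Akap3 were at 0 in all 4 libraries. Of 10 blood cell genes, 2 reached the level required; the microglia and macrophage gene C1qb had 45.1 and 40.5 FPKM in the oocytes and 22.9 and 16.6 FPKM in the zygotes, and its change of -1.09 ± 0.40 (adjusted p = 0.0485) was not called without any 1 of the 4 libraries (adjusted p = 0.0749 to 0.212). The summed blood list was 47.5 and 42.8 FPKM in oocytes and 24.3 and 17.8 FPKM in zygotes. Without C1qb the other 9 genes summed to 2.34 and 2.29 FPKM in oocytes and 1.42 and 1.21 FPKM in zygotes. C1qa was at 0 in all 4 libraries.

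The same step in the Setd2_KO libraries shows where the control change differed. Setd2 stood at 0.968 and 0.927 FPKM in knockout oocytes and at 1.30 and 1.73 FPKM in knockout zygotes, below every control library. The difference between the knockout and control changes was called for 1116 of the 10239 genes, 989 with a more positive change in the knockout and 127 with a more negative one. Over all genes tested the shares were 8.29% and 1.1%. Mos fell by 4.46 ± 0.21 in controls and had a knockout change of 0.43, a difference of 4.89 ± 0.30 (adjusted p = 6.79e-05). Zp3 had changes of -4.86 and -1.48, a difference of 3.37 ± 0.46 (adjusted p = 0.00225). Rps2 had changes of -3.52 and 0.19, a difference of 3.71 ± 0.31 (adjusted p = 0.000243). Both changes of a gene enter this difference, and the control libraries serve both comparisons. Genes admitted through 1 control stage alone were chosen on values that enter the difference, so the rule shaped it for them. For Btg4 the difference of -0.53 ± 0.29 was not called (adjusted p = 0.292), with a knockout change of 0.70. For Tet3 it was 0.13 ± 0.39 (adjusted p = 0.883), also not called.

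By list, the control and knockout medians were -2.59 and -0.29 for ribosomal proteins, and the difference was called with a more positive knockout change in 49 of 77 genes. Of these 77, 13 were admitted through the 2 control oocytes alone, which pushes their difference upward. They were -2.55 and -0.91 for the respiratory chain, with 42 of 78 genes called in that direction. For the egg coat list they were -1.86 and -0.35, with 8 of 16 called. For the decay list they were 0.50 and 0.51, with 3 of 49 genes called more positive and 1 more negative. The background for these counts is 8.29% more positive and 1.1% more negative over all genes tested. List counts of the difference were not taken under the alternatives. The knockout zygotes differed between themselves in the ribosomal share (0.717% and 1.30%), and the count of 1116 ranged from 314 without control oocyte replicate 2 to 1891 without knockout zygote replicate 1. Quantile normalization gave 666 more positive and 293 more negative, median-ratio rescaling 642 and 194, and the median difference of 0.24 became -0.11 and 0.0014.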

How the data were processed

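RNA-seq (Smart-seq2, poly(A)-primed) of control full-grown oocytes and control zygotes, 2 libraries each, was analysed within a table of 12 libraries. The authors deposited FPKM values for 22592 gene symbols, and per the submitters' processing notes they used TopHat2 2.0.11, Cufflinks 2.0.2 and mm9, with no role stated. Counts were not used here, so depth was estimated from the steps of FPKM times transcript length. That estimate used 6810 genes with 1 annotated transcript over 1500 nt. Libraries were grouped by their labels.

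Values were taken as log2(FPKM + 1). The 12199 genes with at least 1 FPKM in 2 of the 12 libraries were fitted with limma 3.58.1 in R 4.3.3 (group means, moderated variances with a trend, 6 groups sharing 1 spread). Two-sided p-values were corrected for 12199 genes (Benjamini-Hochberg) and called at 0.05. An exact permutation test of 2 against 2 libraries cannot go below p = 0.33, so calls rest on the shared spread. In simulated data the control zygote means were set to the control oocyte means, and falls were added to genes of at least 10 FPKM in control oocytes. There the fit found 31% of 100 genes lowered 2-fold and 81% of 100 lowered 4-fold among 12199 genes, with 7.44% false among calls. In the data 24.0% of genes were called lower and 18.5% higher, and the adjustment of p depends on such shares. The simulated recovery therefore does not give the recovery in the reported comparison. Rises, and falls of genes at lower levels, were not simulated. A fold on this scale understates the change of low genes.

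The genes and lists were chosen with earlier results of these data known. Named genes are well-known maternal genes, the 12 largest falls and rises of at least 20 FPKM, the 10 most abundant in each stage, and up to 3 per list and direction of at least 10 FPKM with the smallest adjusted p. Transcript lengths and 3′ ends came from GENCODE vM21 (GRCm38), matched by symbol (21971 of 22592), and no coordinate was carried between builds. Alternatives were another pseudocount (0.1), no filter and a filter at 5 FPKM, quantile normalization, median-ratio rescaling, no trend, the 4 control libraries alone, a replicate block and leaving out each library. The table's 3 companion files were not used.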

Additional observations from a re-analysis of the deposited data

Results flagged for a closer look

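The oocyte-to-zygote change differed between Setd2_KO and control libraries, by a test of the difference itself in limma (adjusted p under 0.05), for 1116 of the 10239 genes. The genes below are those named in the report for which that test passed. Each value is the knockout change minus the control change on the log2 scale, and all share the 4 control libraries with the report's main comparison. Rpl26, Hint3 and Inha were admitted only through the control oocytes and Amd2 only through the control zygotes. The direction of their control change, which enters the difference, was therefore set by the rule.

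Among oocyte genes the difference was 3.37 for Zp3, 2.88 for Zp2, 2.58 for Zp1, 1.54 for Gdf9, 2.57 for Plat, 3.01 for Figla, 1.06 for Nobox and 1.39 for Foxr1. It was 4.42 for Khdc3, 2.95 for Dppa5a, 1.77 for H1foo, 4.89 for Mos and 2.31 for Bub1b. In RNA decay and storage it was 3.84 for Lsm4, 3.67 for Lsm5, 1.43 for Cnot10, 1.77 for Cpeb1, 1.83 for Patl2 and -1.57 for Dcp2.

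For protein synthesis and turnover it was 5.71 for Rpl26, 4.58 for Rpl41, 3.71 for Rps2, 3.08 for Eif3g, 3.27 for Psmb1, 2.53 for Psmc4, 2.23 for Cct5, 1.82 for Hspa8 and -1.33 for Eif4a1. For energy metabolism and transport it was 5.17 for Cox17, 3.32 for Cox7c, 3.59 for Ndufb10, 4.17 for Atp5o, 2.48 for Mdh2 and 1.15 for Atp6v1d. For nuclear and RNA-processing genes it was 3.77 for H2afx, 3.15 for Tyms, 5.17 for Snrpd2, 2.45 for Tarbp2 and -1.85 for Suz12.

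The remaining genes were Tubb6 (1.93), Upp1 (6.09), Hint3 (4.73), Amd2 (-4.43) and Inha (3.27). Inha had 0.816 and 0.519 FPKM in the knockout oocytes and is listed at 0 in both knockout zygotes, so its difference stems from the oocyte level. Amd2 had 12.5 and 48.4 FPKM in the knockout oocytes, against under 0.02 FPKM in control oocytes.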

How the results depend on the processing

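The total of 5058 calls ranged from 3116 to 4250 when 1 control library was left out, with 1803 to 2272 falls and 1270 to 1981 rises. The other settings gave 4328 to 5419 calls. The test of the difference between genotypes was less stable. Its 1116 calls (127 lower, 989 higher) became 530 (63 and 467) with no filter on low values, and 314 to 1891 (30 to 234 lower, 284 to 1657 higher) without 1 library. The lower calls were 79 with a pseudocount of 0.1 and 293 under quantile normalization, and median-ratio rescaling gave 194 lower and 642 higher. The causes were not tested. Median changes that turned sign were those of the maternal-effect list (0.060) and the replication list (0.034) under quantile normalization, and of first embryonic transcripts, which ranged from -0.73 to 0.20 without 1 library. Dppa3, not called, had a change of 0.15 under quantile normalization, 0.044 under median-ratio rescaling and -0.079 to 0.075 without 1 library, and Ccnb2, not called, -0.0090 to 0.18 without 1 library, and Cyp19a1, not called, -0.14 to 0.42. Of the 84 called genes whose values are given, 77 passed in every alternative that tested them and none turned sign. A gene removed by the filter at 5 FPKM, such as Zfp36l2, was not tested in that fit and does not count as held in the lists above. The labels give both stages replicate numbers 1 and 2, and deviations of same-numbered libraries correlated at -0.146 over 10239 genes. With a replicate block the calls were 5137 for the change and 1291 for the difference, and the block ended no call of a named gene. Crossed numbers, added after seeing the data, gave 5257 and 1401. Zygote depth near 3.17 M fragments limits what can be said of genes near 1 FPKM.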
